A study of Mus musculus with 2 samples.

Results

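Conventional type 2 dendritic cells marked by Cd209a were taken from mouse tumours profiled by droplet single-cell RNA sequencing, with 1 library from control tumours and 1 from tumours treated with motolimod. A barcode was a member if it held at least 2 unique molecular identifier (UMI) counts of Cd209a, a UMI of Flt3, H2-DMb2 or H2-Oa, at least 3 UMIs of H2-Ab1, at most 2 UMIs over C1qa, C1qb and C1qc, and none of Cd3e, Cd3g, Csf3r, Xcr1, Clec9a and Fscn1. The rule found 42 members among 7484 control barcodes and 29 among 9314 motolimod barcodes, 71 of 16798 in all, after barcodes under 300 genes or 800 UMIs or above 10% mitochondrial UMIs had been set aside. These thresholds were read from the same counts that are described here, so the level of each gene in the rule is a description of how members were chosen.

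The control group is labelled by that word alone, and the treated group as given motolimod, an agonist of the endosomal RNA sensor TLR8. In both groups tumours of 5 mice were taken apart with collagenase D and DNase I, strained at 70 µm, and leukocytes were drawn out with magnetic beads against CD45, to a stated purity over 95% and viability over 85%. The tumour model, the strain, the age of the mice, the dose and the time of treatment are not given in the sources used here, nor do they say how the mice were combined into the library. With 1 library per group there is no replicate check, no p-value is given, and every difference below is one between these 2 libraries. The 95% intervals cover counting error only.

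Conventional type 2 dendritic cells take up antigen in tissue, load it on MHC class II molecules and present it to CD4 T cells. They depend on the transcription factors IRF4 and, for part of them, KLF4 and NOTCH2, and they carry C-type lectins such as CD209A, CLEC10A and MGL2 as uptake receptors. In tumours they share the tissue with monocyte-derived cells that can also carry MHC class II and Cd209a, so genes of monocytes are given beside the results below.

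The members were of similar depth in both libraries, although the libraries as a whole were not. Control members held 4262 to 29882 UMIs (median 13263.5) and motolimod members 7355 to 25149 (median 12308), against medians of 14055 and 3742.5 over all passing barcodes. The members' UMIs summed to 582147 and 404381, so that 1 UMI stands for about 1.72 CPM (the UMIs of a gene scaled by the members' total UMIs) in control and 2.47 in motolimod members. The libraries shared 94 passing barcode sequences. No sequence marked a member of both, and 1 control member's sequence also occurred in the motolimod library.

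The label was checked against genes the rule did not use. Zbtb46, a transcription factor of conventional dendritic cells, stood at 49.8 CPM in control and 47.0 in motolimod members, and at 2.98 and 3.03 CPM in barcodes gated as monocytes. Clec10a stood at 376 and 556 CPM in members, against 16.4 and 60.6 in monocytes and 45.2 and 48.4 in barcodes gated as type 1 dendritic cells (cDC1). Irf4 stood at 53.3 and 104 CPM in members and at 2.61 and 8.06 in cDC1. Flt3, the growth factor receptor of the lineage and part of the rule, was low: it was detected in 14 of 42 and 9 of 29 members, at 36.1 and 47.0 CPM, while cDC1 held 109 and 101 CPM. Zbtb46 and Clec10a thus stood higher in members than in monocytes, and Clec10a and Irf4 higher than in cDC1. Genes of monocytes were present too, with Lyz2 and Ly6c2 both detected in 5 of 42 control and 14 of 29 motolimod members. Most members entered through H2-DMb2 (detected in 37 and 25) or H2-Oa (31 and 16).

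Markers of T cells and mast cells were at 0, and those of B cells and of other myeloid cells were not. The 5 NK cell markers had 5 UMIs in control and 3 in motolimod members. The T cell markers Cd3d, Trac, Trbc2, Lck, Cd8a and Cd28 and all 4 mast cell markers had no UMI in any member. The 6 plasmacytoid markers, of which Siglech was at 0, summed to 48.1 CPM in control and 61.8 CPM in motolimod members. These were 28 UMIs in 15 of 42 control members and 25 UMIs in 12 of 29 motolimod members. Cd3e, Cd3g, Csf3r, Xcr1 and Clec9a were at 0 because the rule requires it. The 16 macrophage markers summed to 349 CPM in control and 257 CPM in motolimod members, against 18516 and 18533 CPM in gated macrophages, with Mertk at 0 in control and Trem2 at 0 in motolimod members. The 8 monocyte markers summed to 1680 CPM (range over members 0 to 6144) in control and 2100 CPM (371 to 5401) in motolimod members, against 7805 and 6366 CPM in gated monocytes. The 10 neutrophil markers summed to 1702 CPM in control and 547 CPM in motolimod members, found in 40 of 42 and 18 of 29 members. Il1r2 gave 789 of the 991 control UMIs and 158 of the 221 motolimod UMIs. A further 190 of the control UMIs were of Mmp9, all in 1 cell. Cxcr2 and Lcn2 were at 0 in both libraries, and S100a9 had 2 UMIs in control and 33 in motolimod members, 24 of them in 1 cell. The 8 cDC1 markers summed to 405 and 564 CPM, in 38 of 42 and 27 of 29 members, against 4092 and 4458 CPM in gated cDC1. The 6 B cell markers summed to 55.0 and 141 CPM, nearly all of it Ighm (32 and 55 UMIs), with Cd79a and Ms4a1 at 0. The part of such transcripts in the results was not tested.

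At the edge of the rule, members with exactly 2 Cd209a UMIs were 6 in control and 5 in motolimod. They held H2-DMb2 at 659 and 519 CPM, while barcodes that met every other term with 1 Cd209a UMI (6 and 3) held it at 547 and 240 CPM. Barcodes excluded only by a C1q sum of 3 or more numbered 7 in control and 9 in motolimod. Their Pf4 level was 218 and 1198 CPM and their Lyz2 level 1576 and 2174 CPM, while members with 1 or 2 C1q UMIs held Pf4 at 22.4 and 8.69 CPM.

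The share of members among passing barcodes was lower in the motolimod library, and the direction depended on which barcodes were counted. Members were 0.561% of control barcodes (exact Clopper-Pearson interval 0.405 to 0.758%) and 0.311% of motolimod barcodes (0.209 to 0.447%), a ratio of 0.555 (interval 0.333 to 0.912). Among barcodes of at least 5000 UMIs, which hold 41 of 42 control members and all 29 motolimod members, the shares were 0.674% (41 of 6082) and 0.753% (29 of 3850), a ratio of 1.12 (0.670 to 1.84). Of the 3 kinds of dendritic barcodes that were gated (members, cDC1 and migratory cells), members were 28.6% (42 of 147) in control and 56.9% (29 of 51) in motolimod, a ratio of 1.99 (1.20 to 3.27). The cDC1 gate went from 60 to 13 barcodes (ratio of shares of passing barcodes 0.174) and the migratory gate, defined by Fscn1 and Ccr7, from 45 to 9 (ratio 0.161). Neutrophil-gated barcodes, which are shallow, were 4.88% of control and 15.4% of motolimod barcodes, and the part of this in the members' share was not tested beyond leaving them out, which gave a ratio of 0.624 (0.375 to 1.03). Macrophage-gated barcodes were 39.6% and 23.9% and epithelial-gated barcodes 10.2% and 0.902%, and their part in the members' share was not tested.

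**Figure D1:**
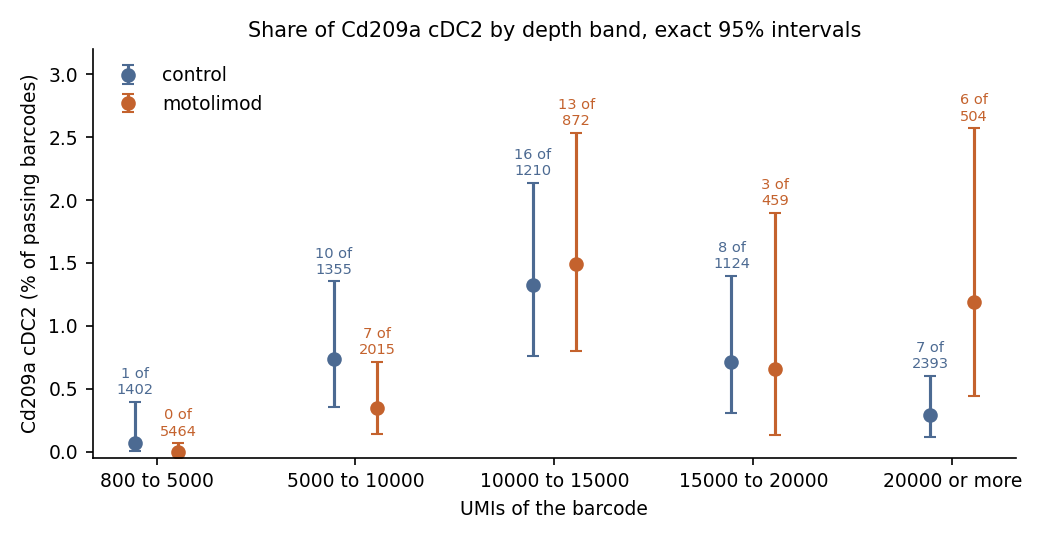
Share of passing barcodes that were members (percent, y axis) in bands of barcode depth (UMIs, x axis) for the control and motolimod libraries, with exact 95% intervals and the counts above each point. In bands from 5000 to 20000 UMIs the intervals of the libraries overlap. Below 5000 UMIs, where 5464 motolimod barcodes lie, there was 1 member in all. At 20000 UMIs or more, members were 7 of 2393 control barcodes (0.293%) and 6 of 504 motolimod barcodes (1.19%). The ratio in that band was 4.07 (1.13 to 14.1), higher in motolimod.

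Levels were compared over 5485 genes that reached 20 CPM and a UMI in 10% of members in at least 1 library. A gene was called when its motolimod to control ratio was at least 1.5-fold in either direction with an interval that excluded 1. By this rule 487 genes (8.88%) were higher and 347 (6.33%) lower in motolimod members, which is the background for the counts that follow. The median log2 ratio over all measured genes was 0.04. When the cell with most UMIs of a gene was left out in each library, 369 of the 487 and 300 of the 347 were still called.

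Genes of lineage identity differed unevenly. None of 11 core genes of conventional dendritic cells was higher and 3 were lower. Itgax, which encodes CD11c, went from 161 to 79.1 CPM (ratio 0.490, interval 0.317 to 0.739), with a UMI in 32 of 42 control and 18 of 29 motolimod members. Thinned to 1000 UMIs in a seeded draw, where few members kept an Itgax UMI, it was instead detected in 2.38% of control and 17.2% of motolimod members (1 and 5 cells). Spint1 went from 172 to 79.1 CPM (ratio 0.461) and the short-chain fatty acid receptor Ffar2 from 75.6 to 42.0 CPM (ratio 0.556). Zbtb46 (ratio 0.943, 0.500 to 1.74) and Flt3 (1.30, 0.662 to 2.55) were not called.

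Of 10 measured genes of the type 2 lineage, 5 were higher and none lower, with a median log2 ratio of 0.58. The same list had a median of 0.73 in cDC1, 0.66 in migratory cells, 0.34 in monocytes, 0.58 in macrophages, 0.64 in neutrophils, 0.69 in T cells and 0.21 in epithelial cells, over 2 to 8 measured genes. Irf4, the transcription factor of the lineage, went from 53.3 to 104 CPM (ratio 1.95, 1.20 to 3.21), with a UMI in 15 of 42 and 17 of 29 members. Notch2, the receptor whose signal supports part of the lineage, went from 18.9 to 64.3 CPM (ratio 3.40, 1.62 to 7.63) and was detected in 11 of 42 and 17 of 29 members. Klf4 was at 187 and 282 CPM (ratio 1.51, and 1.45 without the top cells) and Cd7 at 119 and 240 CPM (ratio 2.02). Clec10a was at a ratio of 1.48 (1.22 to 1.79), just under the 1.5-fold rule, and its detection went from 34 of 42 to 28 of 29 members. Sirpa, a surface receptor used to define these cells, was at 153 and 171 CPM and was not called.

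Mgl2 shows how far a single cell can carry a sum. Its summed level was 658 CPM in control and 564 CPM in motolimod members (ratio 0.857), but 149 of the 228 motolimod UMIs were in 1 cell. Without the top cell of each library the ratio was 0.338. Mgl2 was detected in 22 of 42 control and 10 of 29 motolimod members.

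The lists for the 2 published kinds of type 2 dendritic cell, one marked by Tbx21 and one by Clec12a and monocyte-like genes, were mostly thin here. For the Tbx21 kind only 3 of 9 genes were measured. The cytokine gene Ltb was lower, at 82.5 and 32.1 CPM (ratio 0.390, 0.194 to 0.731; 18 of 42 and 5 of 29 members), and Tbx21 itself had 8 UMIs over 6 control members and 0 in motolimod members, where 3 UMIs would be 7.42 CPM. For the Clec12a kind 3 of 8 genes were higher and 2 lower, with a median log2 ratio of -0.01. Clec12a was level at 56.7 and 56.9 CPM, the fractalkine receptor Cx3cr1 was higher on few counts (4 and 11 UMIs), and Csf1r (ratio 0.446) and Fcgr3 (ratio 0.492) were lower.

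Among genes shared with monocytes, Ccr2 and Lyz2 were higher in motolimod members. Ccr2, the receptor that brings monocytes and their kin out of bone marrow, stood at 75.6 CPM in control (interval 54.9 to 101) and 386 CPM in motolimod members (328 to 451), a ratio of 5.10 (3.63 to 7.30). The median member had 0 CPM in control (0 to 399) and 423 CPM in motolimod (0 to 1044), and 3 or more UMIs were found in 8 of 42 and 18 of 29 members. After each member was thinned to 1000 UMIs, Ccr2 was detected in 2.38% of control and 31.0% of motolimod members (19 of 42 and 23 of 29 unthinned). Ccr2 was also higher in gated monocytes (379 and 591 CPM), macrophages (53.6 and 175 CPM) and T cells (72.7 and 158 CPM) of the motolimod library.

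Lyz2, which encodes lysozyme, went from 294 to 747 CPM (ratio 2.54, 2.10 to 3.09) and was detected in 13 of 42 and 20 of 29 members. In T cells, which lack it, Lyz2 was at 275 and 231 CPM and had a UMI in 20.9% and 23.8% of barcodes (median depths 6614.5 and 5204 UMIs). As sums, control members were thus near the level in T cells and motolimod members above it. The level was uneven over cells. The median member was at 0 CPM in control (0 to 9312) and 306 CPM in motolimod (0 to 4455). Thinned to 1000 UMIs, 9.52% of control and 31.0% of motolimod members had a Lyz2 UMI.

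Other genes of monocyte-derived cells were mixed. Of 9 measured genes of their list, Fn1 was called higher, with 14 of its 18 motolimod UMIs in 1 cell and a ratio of 1.15 without the top cells, and 2 were lower. Apoe, a lipid carrier of macrophages, was at 124 and 14.8 CPM, with 46 of 72 control UMIs in 1 cell. Ly6c2 was at 247 and 304 CPM (ratio 1.23, 0.959 to 1.58), Cd14 at 271 and 250 CPM, and Fcgr1 at 137 and 114 CPM, and none of these was called. Members with both a Lyz2 and a Ly6c2 UMI were 5 of 42 in control and 14 of 29 in motolimod.

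Without the members with 5 or more Ly6c2 UMIs (7 in control and 10 in motolimod), 448 genes were called higher and 283 lower, and the ratios of Ccr2 and Lyz2 were 4.49 and 1.99. This alternative, like the one without cycling cells, was added after the data had been seen.

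**Figure D2:**
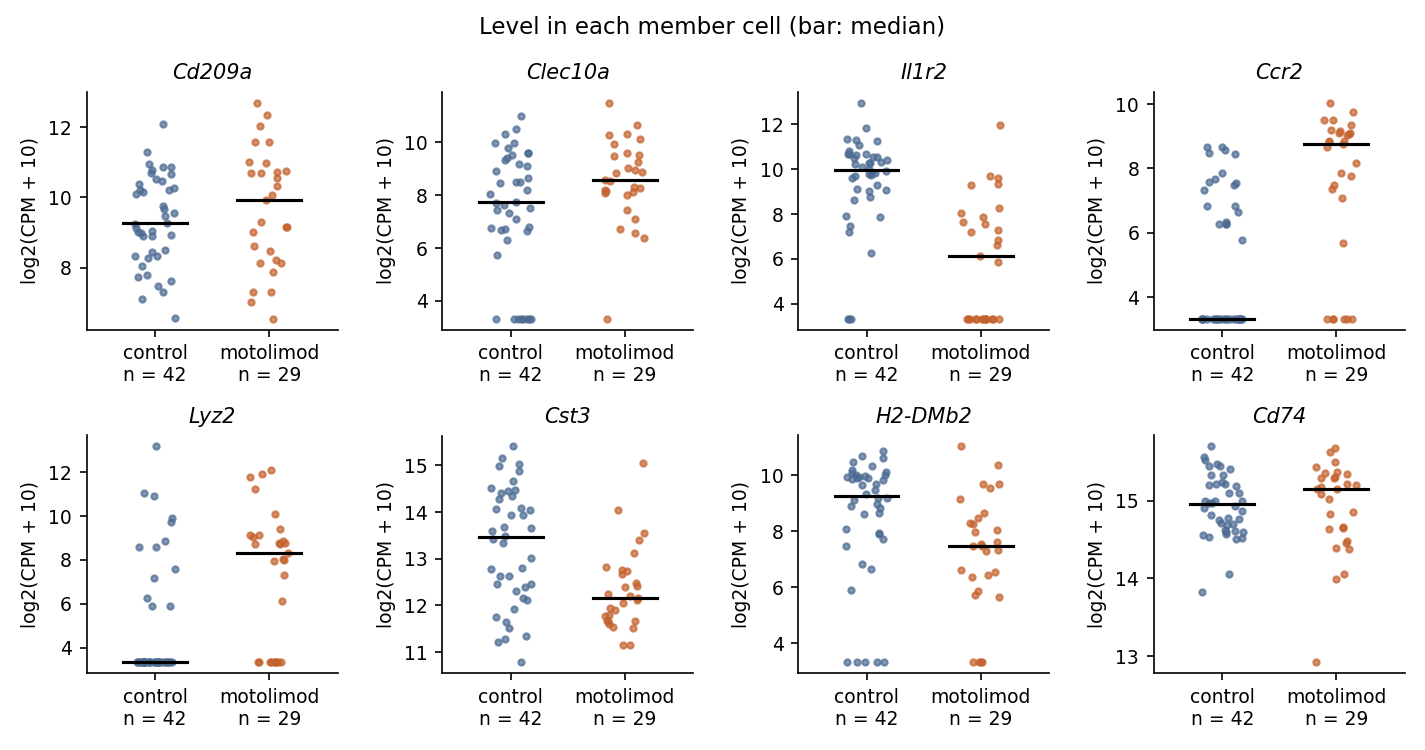
Level of 8 genes in each member cell, as log2(CPM + 10) on the y axis, with a point per cell and a bar at the median of each library (42 control and 29 motolimod members). Il1r2 and Cst3 sit lower and Ccr2 and Lyz2 higher in most motolimod members, and the points of the libraries overlap in every panel.

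Il1r2, the decoy receptor that binds interleukin-1 without signalling, was lower in nearly every motolimod member. It stood at 1355 CPM (1262 to 1453) in control and 391 CPM (332 to 457) in motolimod members, a ratio of 0.288 (0.241 to 0.342), and 0.145 without the top cell of each library. A single cell held 97 of the 158 motolimod UMIs. The median member was at 989 CPM in control (0 to 7997) and 59.7 CPM in motolimod (0 to 4012), and 28 of 29 motolimod members lay below the control median. At least 10 UMIs were found in 27 of 42 control and 2 of 29 motolimod members.

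Thinned to 1000 UMIs, Il1r2 was detected in 61.9% of control members (45.6 to 76.4%) and 13.8% of motolimod members (3.89 to 31.7%). Unthinned, 39 of 42 and 16 of 29 had a UMI. In T cells Il1r2 was at 129 and 55.5 CPM, with a UMI in 26.7% and 11.4% of barcodes. It was also lower in gated neutrophils (1451 and 873 CPM) and monocytes (245 and 112 CPM), and higher in the 13 motolimod cDC1 (98.1 and 286 CPM). Control members held about as much Il1r2 as neutrophils did, and Cxcr2 and Lcn2, neutrophil genes outside the rule, were at 0 in them.

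The interleukin-1 cytokine itself was lower as well. Il1b went from 2264 to 1405 CPM (ratio 0.620, 0.561 to 0.685), with a UMI in 37 of 42 and 24 of 29 members. Tnf was called higher, at 70.4 and 126 CPM (ratio 1.79, 1.16 to 2.77), in 10 of 42 and 14 of 29 members. Il12a, Il12b, Il23a and Il10, cytokines that direct T cell responses, had no UMI in members of either library, where 3 UMIs would be 5.15 CPM in control and 7.42 CPM in motolimod. Of 7 measured genes in this list, 1 was higher and 2 lower.

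Chemokines were called in both directions, with 3 of 13 measured genes higher and 4 lower. Ccl17, which attracts T cells through CCR4, was at 160 CPM in control and 14.8 CPM in motolimod members (ratio 0.0929, 0.0332 to 0.210), from 11 of 42 and 2 of 29 members. Ccl22, which uses the same receptor, had 12 UMIs and 1 UMI (ratio 0.557 without the top cells). Ccl5 (ratio 0.288) and the membrane-bound Cxcl16 (ratio 0.571) were also lower, but 98 of 135 control Ccl5 UMIs were in 1 cell.

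Cxcl2, a neutrophil attractant, was higher, at 338 and 1437 CPM (ratio 4.25), in 7 of 42 and 17 of 29 members, although 147 of 197 control and 297 of 581 motolimod UMIs were in 1 cell each (ratio 8.23 without them). The direction turned to 0.839 in the members with at least 2 of Flt3, H2-DMb2 and H2-Oa. Cxcl2 in T cells was at 373 and 921 CPM, and in neutrophils, its main source here, at 19478 and 35504 CPM. How much of the members' Cxcl2 was free RNA was not tested. The monocyte attractants Ccl7 (32.6 and 114 CPM) and Ccl9 (101 and 156 CPM) were called higher. Pf4, a chemokine in the title of the study, had 4 UMIs in control and 7 in motolimod members (6.87 and 17.3 CPM), too few for the comparison, against 591 and 2075 CPM in macrophages.

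Of 12 measured genes of maturation and migration, 2 were higher and 4 lower. Ccr7, the receptor that guides mature cells to lymph nodes, was at 67.0 and 29.7 CPM (ratio 0.443, 0.211 to 0.864), from 6 of 42 and 2 of 29 members, although cells with Fscn1, another gene of that state, were left out by the rule. Marcksl1 was higher (ratio 2.45), and Il4i1 was higher on 2 and 9 UMIs. Cd63 was called lower only with its top control cell included, and its ratio was 1.73 without it.

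Costimulatory genes were mostly level, with 3 of 13 lower and none higher. Cd86 was at 112 and 104 CPM (ratio 0.930, 0.616 to 1.39), Cd40 at 61.8 and 71.7 CPM, and Cd83 at 376 and 472 CPM. Checkpoint genes and a costimulatory ligand were the lower ones. Cd274, which encodes PD-L1, was at 113 and 47.0 CPM (ratio 0.414, 0.235 to 0.699), in 22 of 42 and 9 of 29 members. Havcr2, which encodes TIM-3, was at 60.1 and 7.42 CPM (ratio 0.123, 0.0243 to 0.391), in 16 of 42 and 3 of 29 members. Icosl was at 49.8 and 19.8 CPM (ratio 0.397).

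The MHC class II genes were nearly level, apart from H2-DMb2. None of 13 measured genes of this list was higher and 1 was lower, with a median log2 ratio of -0.07. Cd74, the invariant chain, was at 31344 and 31680 CPM (ratio 1.01, 0.988 to 1.03), H2-Aa at 12742 and 11956 CPM (0.938), H2-Ab1 at 11135 and 10562 CPM (0.949) and H2-Eb1 at 10874 and 9471 CPM (0.871). Summed over the list, the median member was at 74036 CPM in control and 75867 CPM in motolimod. Ciita, the coactivator of these genes, was at 131 and 193 CPM (ratio 1.48, 1.06 to 2.05).

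H2-DM exchanges peptides on class II molecules and H2-O restrains it. The alpha chain H2-DMa was level at 1180 and 1172 CPM. H2-DMb2 was at 704 and 331 CPM (ratio 0.471, 0.384 to 0.573), with 24 of 29 motolimod members below the control median of 606 CPM, and its neighbour H2-DMb1 was at 1177 and 1410 CPM (ratio 1.20, 1.07 to 1.34). These 2 beta chain genes are near-identical copies, so the split of reads between them is uncertain. Their sum was 1881 and 1741 CPM (ratio 0.926, 0.841 to 1.02). H2-Oa was at 228 and 153 CPM (ratio 0.671, 0.488 to 0.914) and H2-Ob at 101 and 96.4 CPM. The H2-Oa ratio was not called, and it turned to 1.28 when each member was thinned to 3000 UMIs. H2-DMb2 and H2-Oa are both in the rule, so their detected shares are partly set by it.

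These genes lie together on mouse chromosome 17 (mm10), H2-DMb2 at 34143307 to 34151555 and H2-DMb1 at 34153072 to 34160230, both on the plus strand. Of 8 class II promoters sought, 7 were in the RefSeq table (GRCm38.p6), and 6 held GATTGG, the core letters of the Y box, within 100 bases before the start. Positions are counted from RefSeq starts. For H2-DMb2, H2-DMb1 and H2-Oa (34092340 to 34095234) these starts lie inside the gene bounds. The stretches of these genes are thus within those bounds or across their edge. The 6 are shown because the class II genes stayed level as a group while H2-DMb2 and H2-DMb1 differed. Each stretch of 70 bases ends near its Y box, runs 5′ to 3′ along the gene, and has GATTGG and GATGATG in capitals.
H2-DMb2, chr17:34145098-34145167, plus strand: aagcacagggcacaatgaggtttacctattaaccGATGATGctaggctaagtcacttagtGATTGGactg
H2-DMb1, chr17:34153069-34153138, plus strand: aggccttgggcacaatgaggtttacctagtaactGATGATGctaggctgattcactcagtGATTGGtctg
H2-Eb1, chr17:34305747-34305816, plus strand: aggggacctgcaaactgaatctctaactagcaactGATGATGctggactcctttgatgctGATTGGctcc
H2-Aa, chr17:34287863-34287932, minus strand: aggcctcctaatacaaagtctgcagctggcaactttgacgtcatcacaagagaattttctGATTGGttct
H2-Oa, chr17:34092275-34092344, plus strand: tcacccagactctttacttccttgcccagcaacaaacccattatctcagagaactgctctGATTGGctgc
H2-Ob, chr17:34238787-34238856, plus strand: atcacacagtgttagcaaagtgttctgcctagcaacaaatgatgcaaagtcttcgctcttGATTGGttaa
The H2-DMb2 and H2-DMb1 stretches have the same letter at 60 of 70 positions, including both capitalised motifs, while H2-DMb2 and H2-Oa have it at 23. Over 32851 promoters in that table, read on both strands and over 250 bases before to 50 after the start, GATTGG was in 14.6%, GATGATG in 2.92%, and both on 1 strand in 0.116%. Within 100 bases before the start, the window used for the 6 above, GATTGG was in 8.62%. The motifs do not overlap each other, and a match says nothing of whether a factor was bound.

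None of 13 measured genes of MHC class I presentation was called in either direction. H2-K1 was at 1805 and 1845 CPM and B2m at 1482 and 1560 CPM. Psmb8, a proteasome subunit for class I peptides, was at 1122 and 910 CPM (ratio 0.811), and after thinning was detected in 81.0% of control and 34.5% of motolimod members.

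C-type lectins, receptors for sugars on microbes and dying cells, were called in both directions: 6 of 17 measured genes were higher and 2 lower. Clec4b1 was at 13.7 CPM in control and 126 CPM in motolimod members (ratio 9.18, 4.32 to 22.4), in 6 of 42 and 16 of 29 members, and in T cells at 0.582 and 0.781 CPM. Clec4a1 was at 13.7 and 124 CPM (ratio 9.0, 4.23 to 22), Clec4a3 at 42.9 and 163 CPM (ratio 3.80), and Clec4a2 at 22.3 and 64.3 CPM (ratio 2.88). The mannose receptor gene Mrc1 was at 27.5 and 104 CPM (ratio 3.78) and Clec4e, which encodes Mincle, at 8.59 and 42.0 CPM.

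Clec4n, which encodes Dectin-2, went the other way, at 471 and 166 CPM (ratio 0.352, 0.265 to 0.461), in 35 of 42 and 11 of 29 members, as did Clec5a (12 UMIs and 1 UMI, ratio 0.434 without the top cells). The Clec4 genes are neighbours on mouse chromosome 6, from Clec4a1 at 122921848 to 122934619 through Clec4b1 at 123049962 to 123071555 to Clec4n at 123229843 to 123247021 (mm10), so genes called in opposite directions lie in 1 cluster. The Clec4a genes are similar in sequence, and their reads may be shared. In macrophages Clec4b1 was at 56.5 and 59.1 CPM and Clec4a1 at 165 and 257 CPM, and in monocytes they were at 13.4 and 31.6 CPM and at 144 and 273 CPM. The list as a whole had a median log2 ratio of 0.55 in members and 0.55 in monocytes (6 of 13 measured genes higher, 1 lower), 0.40 in macrophages and 1.34 in cDC1 (4 of 8 higher). Cd209a itself, which the rule uses, was at 849 and 1246 CPM, and its paralogs Cd209b, Cd209f and Cd209g had no UMI in members. Other paralogs did: thinned to 1000 UMIs, Cd209c was detected in 11.9% of control and 3.45% of motolimod members. Cd209d was detected in 4.76% and 10.3%.

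Motolimod acts on TLR8, and members held no Tlr8 UMI in either library. Gated monocytes held it at 6.33 and 11.2 CPM and macrophages at 7.30 and 9.38 CPM. Tlr7, the other sensor of single-stranded RNA, had 0 UMIs in control and 10 UMIs in 7 of 29 motolimod members, at least 4.80-fold higher against a floor of 3 UMIs over the control members. Tlr9 was higher on 4 and 11 UMIs, the adaptor Myd88 was level (115 and 106 CPM), and 2 of 15 measured genes of the pathway were higher and none lower.

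Among 20 measured NF-kB targets, 7 were higher and 2 lower, with a median log2 ratio of 0.42. Icam1, an adhesion ligand, was at 29.2 and 89.0 CPM (ratio 3.05, 1.67 to 5.79), in 7 of 42 and 14 of 29 members. Gadd45b was at 184 and 465 CPM (ratio 2.53) and Marcks at 105 and 257 CPM (ratio 2.45). Nlrp3, the inflammasome sensor (ratio 0.584), and the survival gene Bcl2a1b (ratio 0.600) were lower, and the inhibitor Nfkbia was at 914 and 1234 CPM and not called.

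Of 24 measured type I interferon response genes, 4 were higher and none lower. Oas1a was at 97.9 and 210 CPM (ratio 2.15, 1.52 to 3.06), Oas2 at 18.9 and 51.9 CPM, and Usp18 at 46.4 and 84.1 CPM. Cmpk2 was called on 1 UMI and 11 UMIs. The most abundant of the group, Isg15, was not higher (831 and 725 CPM, ratio 0.871, 0.751 to 1.01). Of 17 genes of the interferon-gamma response, none was higher and 4 were lower, among them the feedback inhibitor Socs1 (101 and 27.2 CPM) and Gbp2 (196 and 91.5 CPM, in 21 of 42 and 6 of 29 members).

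Immediate early and heat shock genes were higher as a group: 12 of 24 measured genes were higher and none lower, with a median log2 ratio of 0.63. Fos went from 893 to 2357 CPM (ratio 2.64, 2.37 to 2.94), with a UMI in 40 of 42 and in all 29 members. Dusp1, a phosphatase that ends MAP kinase signals, went from 806 to 1936 CPM, and 25 of 29 motolimod members lay above the control median. Egr1 went from 186 to 707 CPM (ratio 3.81) and Hspa1a from 134 to 465 CPM (ratio 3.47). In other gated cells the list's median log2 ratio was 0.11 in cDC1, 0.07 in monocytes, 0.14 in migratory cells, 0.13 in macrophages, 0.15 in T cells, -0.03 in epithelial cells and -0.46 in neutrophils (1 higher and 8 lower of 21).

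Transcription factors of myeloid cells were higher in 9 of 22 and lower in 1. Klf6 was at 299 and 715 CPM (ratio 2.39), Zeb2 at 87.6 and 188 CPM (2.15), Batf3 at 25.8 and 76.7 CPM (2.98, 1.56 to 5.93) and Cebpa at 10.3 and 32.1 CPM (3.12). Id2 was at 196 and 89.0 CPM (ratio 0.455, 0.303 to 0.666). In cDC1, which depend on BATF3, Batf3 was at 201 and 177 CPM, well above its level in members.

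Glycolysis and hypoxia genes were lower as a group. Of 18 measured, 10 were lower and none higher, with a median log2 ratio of -0.77. Tpi1 went from 732 to 297 CPM (ratio 0.406, 0.328 to 0.498), Pkm from 1199 to 648 CPM (0.540), Ldha from 1338 to 784 CPM (0.586) and Pgk1 from 491 to 267 CPM (0.544). The hypoxia-induced genes Egln3 (39.5 and 9.89 CPM) and Ndrg1 (99.6 and 39.6 CPM) were lower too. Gapdh was level at 1682 and 1763 CPM (ratio 1.05, 0.951 to 1.16), and Eno1 was at a ratio of 0.814.

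The difference was spread over the members. The 20 genes summed to a median of 6872 CPM per control member (2180 to 21715) and 3820 CPM per motolimod member (1611 to 25039), with 25 of 29 motolimod members below the control median. Thinned to 1000 UMIs, Ldha was detected in 81.0% and 48.3% of members and Pgam1 in 59.5% and 20.7%. The list's median log2 ratio was -0.63 in gated T cells, -0.40 in cDC1, -0.33 in monocytes and -0.34 in macrophages, so a lower level was not limited to members, and in the 9 motolimod migratory cells it was 0.61. Whether members differ from those cells was not tested.

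**Figure D3:**
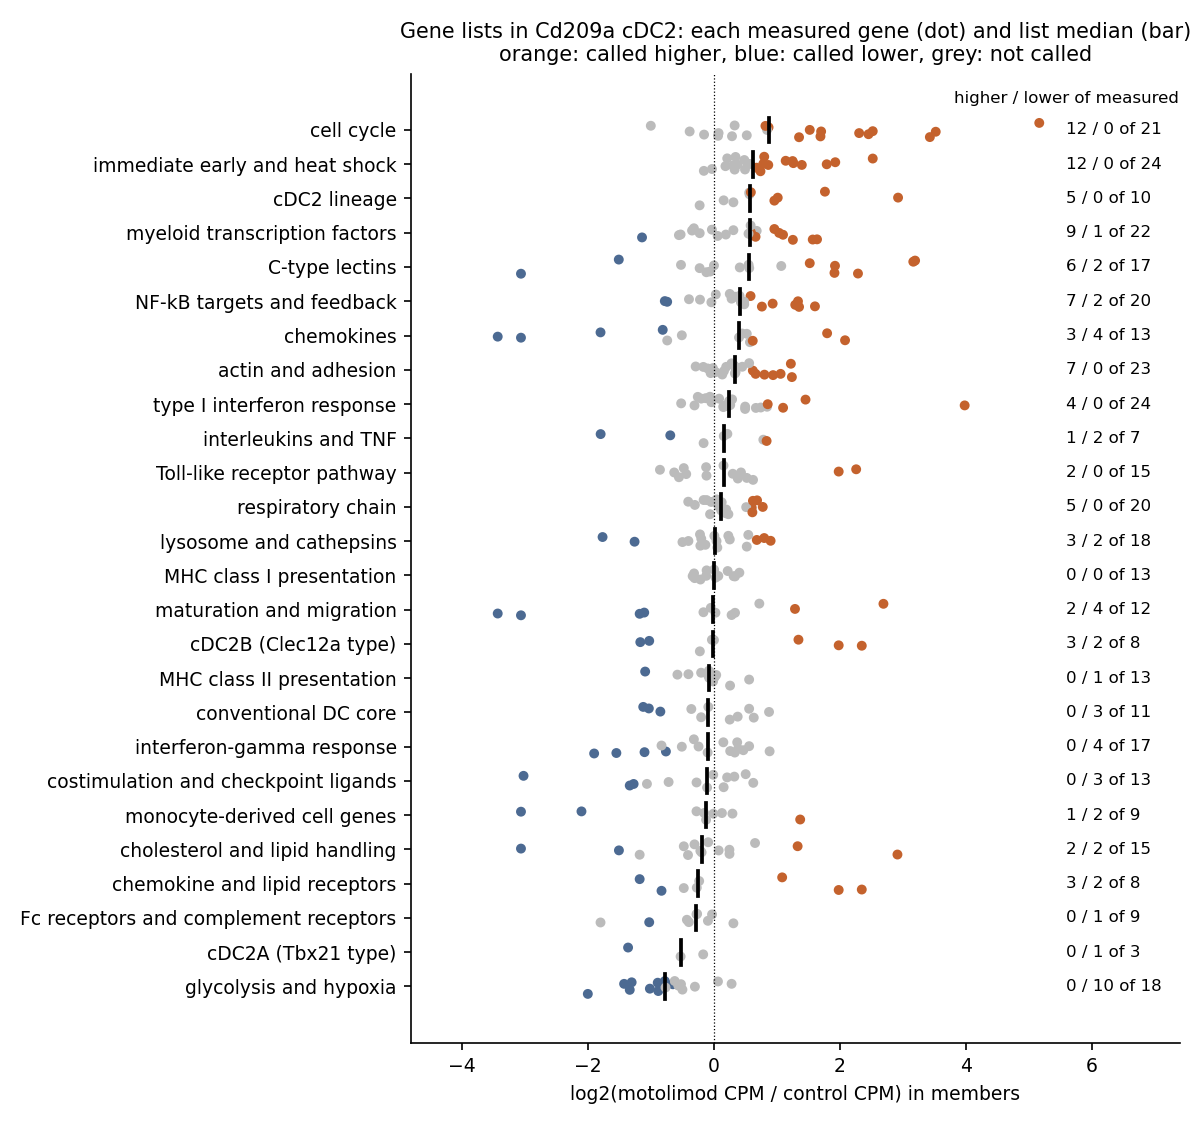
Log2 ratio of motolimod to control CPM (x axis) for each measured gene of 26 lists (dots), with list medians (bars) and counts of genes higher and lower at the right. The glycolysis and hypoxia list has the lowest median, -0.77, and the cell cycle list the highest, 0.87.

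Cst3, which encodes cystatin C, an inhibitor of cysteine cathepsins that is abundant in dendritic cells, was the most abundant gene among those called in the 26 lists. It went from 14184 CPM (13879 to 14493) to 5940 CPM (5705 to 6182), a ratio of 0.419 (0.400 to 0.438), with a UMI in every member. The median member was at 11284 CPM (1750 to 43495) in control and 4593 CPM (2274 to 34004) in motolimod, and 26 of 29 motolimod members lay below the control median. Cst3 was at 41360 and 34334 CPM in cDC1, 35053 and 20265 CPM in migratory cells, and 2915 and 2951 CPM in monocytes.

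The rest of the lysosomal list was mixed, with 3 of 18 genes higher and 2 lower. Cathepsin L (Ctsl) was at 75.6 and 22.3 CPM (ratio 0.294). The sphingolipid activator precursor Psap was at 1342 and 2339 CPM (ratio 1.74) and Lamp1 at 120 and 225 CPM (ratio 1.87). Of 15 lipid genes, 2 were higher and 2 lower, among them the lipase Lpl (6.87 and 51.9 CPM) and Fdps, an enzyme of the cholesterol pathway (168 and 59.4 CPM). Fdps was also lower in monocytes (130 and 38.5 CPM) and T cells (133 and 48.4 CPM).

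Actin and adhesion genes were higher in 7 of 23 and lower in none. Crip1 went from 2740 to 5722 CPM (ratio 2.09, 1.96 to 2.23), Ahnak from 435 to 1016 CPM (2.34), S100a10 from 931 to 1790 CPM (1.92) and Vim from 3193 to 5067 CPM (1.59). Itga4, an integrin chain used in leaving blood vessels, was at 24.0 and 56.9 CPM. Ahnak was also higher in monocytes (448 and 940 CPM) and macrophages (231 and 467 CPM), while Vim was not (3716 and 3252 CPM in monocytes). Among respiratory chain genes, 5 of 20 were higher, all of them encoded by the mitochondrial genome, with mt-Nd4 at 179 and 307 CPM, and the members' median mitochondrial share was 0.766% and 1.17%.

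Cell cycle genes were higher in 12 of 21 and lower in none, and this rested on few cells. At least 5 UMIs over 6 mitotic genes were found in 3 of 42 control (7.14%) and 5 of 29 motolimod members (17.2%). Top2a was at 18.9 and 104 CPM, and Ube2c at 22.3 and 257 CPM with 59 of its 104 motolimod UMIs in 1 cell. The list's median log2 ratio was 0.87, and -0.37 without those 8 cells.

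The 10 highest and 10 lowest ratios by the naming rule, which asks for 50 CPM for detection in 25% of members of the higher library, and for at least 10% of the level in any other gated class, are mostly genes outside these lists. Besides Clec4b1, Clec4a1 and Ccr2, the higher genes included Rnd3 (6.87 and 56.9 CPM, 4 of 42 and 13 of 29 members), the receptor phosphatase Ptpro (12.0 and 91.5 CPM, 7 and 20 members), Lmo1 (8.59 and 61.8 CPM), Tppp3 (24.0 and 136 CPM), the kinase Camkk2 (12.0 and 54.4 CPM) and Polr2l (12.0 and 51.9 CPM). Their ratios ranged from 4.32 to 9.18.

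On the lower side, besides Ccl17 and Havcr2, Plet1, which encodes a membrane-anchored surface protein, was at 191 and 22.3 CPM (ratio 0.117, 0.0520 to 0.230), in 12 of 42 members and in 1 of 29. The others were the matrix protease Mmp14 (55.0 and 2.47 CPM, 13 and 1 members), the prion protein gene Prnp (51.5 and 4.95 CPM), Cystm1 (63.6 and 7.42 CPM), the protease Htra3 (77.3 and 9.89 CPM), the kinase Sgk1 (60.1 and 12.4 CPM), Cyp4f16 (92.8 and 19.8 CPM) and the cytokine receptor Il21r (94.5 and 22.3 CPM, 26 and 8 members). All 20 kept their direction without the top cell of each library.

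**Figure D4:**
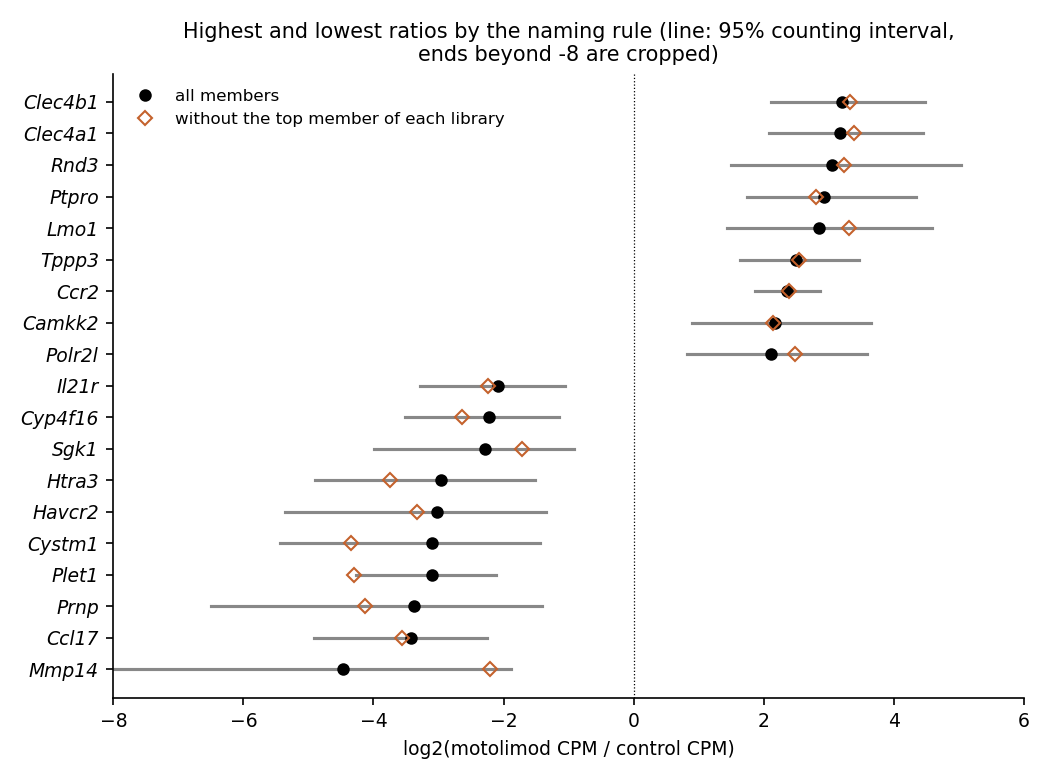
Log2 ratio of motolimod to control CPM (x axis) for the highest and lowest genes of the naming rule, with all members (dots, lines show 95% counting intervals) and without the top cell of each library (diamonds). Diamonds lie on the same side of 0 as dots for each gene shown. Mmp14 moves most, from a ratio of 0.0450 to 0.217.

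Members differed among themselves within each library. In control, members without a Ly6c2 UMI (29 of 42) held all Plet1 UMIs (260 CPM, 12 cells) and more Il1r2 (1540 CPM) and H2-DMb2 (791 CPM) than the 13 members with Ly6c2 (0, 846 and 465 CPM). In motolimod, the 12 members without Ly6c2 held Il1r2 at 748 CPM and H2-DMb2 at 503 CPM, and the 17 with Ly6c2 at 149 and 216 CPM. Much of that rested on 1 cell, without which the other 11 held Il1r2 at 180 CPM and H2-DMb2 at 360 CPM. Ccr2 ran the other way, at 56.2 and 129 CPM in control members without and with Ly6c2 and at 257 and 473 CPM in motolimod members. Among members without Ly6c2, Ccr2 was thus higher and Il1r2 lower in motolimod, as over all members. These splits describe the cells and have no test.

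Ccl17 and Plet1 came mostly from members with Mgl2. Of the 22 control members with Mgl2, 10 had Ccl17 and 10 had Plet1, and 5 control members had both Ccl17 and Plet1. Control members with Mgl2 held Ccl17 at 281 CPM and Plet1 at 321 CPM, and those without at 3.92 and 23.5 CPM. In motolimod, all 6 Ccl17 UMIs and all 9 Plet1 UMIs came from the 10 members with Mgl2, and 1 cell among them held 149 Mgl2, 97 Il1r2 and 32 H2-DMb2 UMIs, the most of any motolimod member for each.

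A control member stood apart from all others. It held 392 UMIs of Ctsk, 364 of Acp5, 190 of Mmp9 and 132 of Mt3, genes known from osteoclasts (Ctsk, Acp5, Mmp9) and metal binding (Mt3), and it was the deepest member with 29882 UMIs. No other member had a Ctsk or Mmp9 UMI. Without it 478 genes were called higher and 341 lower.

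**Figure D5:**
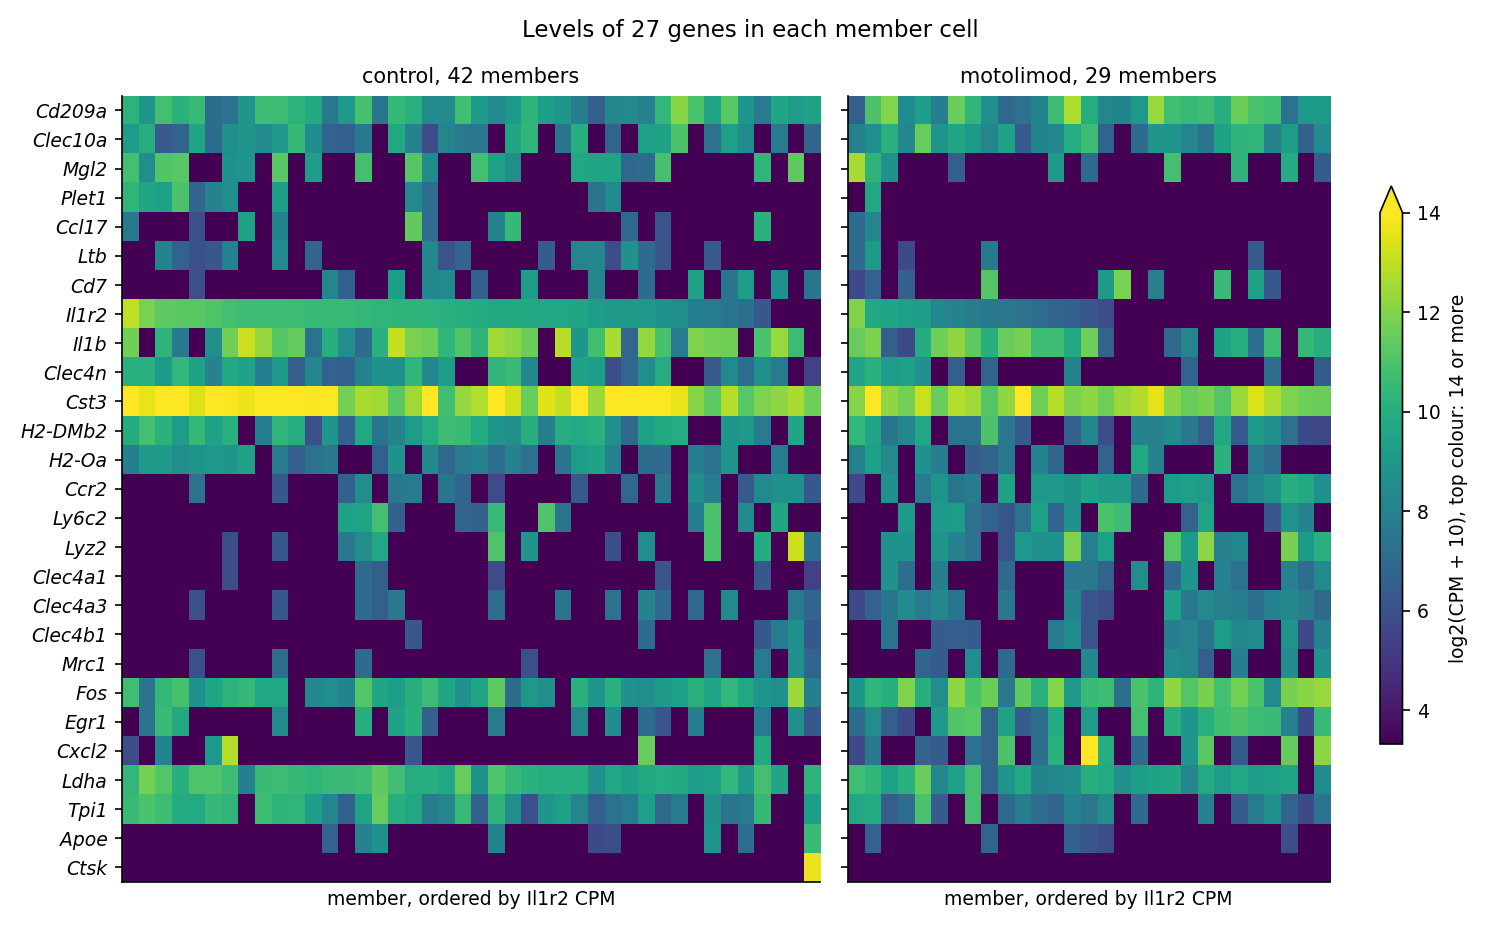
Level of the genes at the left, as log2(CPM + 10) in colour, in each of the 42 control and 29 motolimod members, ordered within each library from high Il1r2 at the left to low at the right. Plet1 and Ccl17 are seen in fewer motolimod than control members, Clec4a1, Clec4a3 and Clec4b1 are seen in more motolimod than control members, and Ctsk in 1 control member at the right.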

How the data were processed

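Tumour leukocytes were profiled with 10x 3′ v3 chemistry in 1 library per group, about 30000 cells loaded each. The authors deposited raw UMI counts per gene and barcode, aligned to mm10; Cell Ranger is named as 5.0.1 per the submitters' processing notes, whereas it is 7.1.0 per the file headers. The setting for intronic reads is not given in the sources used here. The libraries held 127609378 UMIs in 8099 barcodes (control) and 62057685 in 10037 (motolimod).

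Barcodes were filtered and gated in Python 3.11.15 (pandas 2.3.3, scipy 1.17.1). The members and lists were chosen with earlier results of these data known. Member counts were summed per library and divided by the members' total UMIs (CPM). Exact Poisson intervals were put on levels, exact conditional binomial intervals on ratios and exact Clopper-Pearson intervals on shares. A ratio against 0 UMIs used a floor of 3 UMIs over the members. Other classes were gated by markers in the same way. Scrublet (scanpy 1.11.5) called 0 barcodes in each library, so its automatic call had not worked; removing the highest scores (448 and 694 barcodes) removed 0 members. At least 3 UMIs of neutrophil core genes were found in 1 control and 2 motolimod members, which were kept. For detection shares each member was thinned to 1000 UMIs, and 0 members were too shallow.

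Genes were named by rule: the genes of the gate, the 10 highest and 10 lowest called ratios with at least 50 CPM, a UMI in 25% of members and 10% of the level of any other gated class, up to 4 genes per list with the largest log2 ratio, and the defining genes of lists. Others named beside them, such as further called genes of a list, level genes and the genes of the control member that stood apart, were chosen after their values were seen. The count procedure was tested on simulated data. The simulated cells of a library shared the same gene profile, so differences between cells beyond counting error were not covered. Of 24 C-type lectin genes, 1 was not analysed here. Results for a few genes are not reported here.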

Additional observations from a re-analysis of the deposited data

How the results depend on the processing

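No paired analysis was possible because each group is 1 library. The ratio of shares turned to 1.02 when every barcode was thinned to 3000 UMIs before gating, 1.12 among barcodes of at least 5000 UMIs and 1.99 among the 3 gated dendritic kinds, and ranged from 0.427 to 0.793 under the other alternatives. Thinning each member to 3000 UMIs left 145 genes higher and 103 lower, from fewer UMIs. At 1000 UMIs, detection differed by 20 points for 22 of the 438 genes examined, a chosen set and not all genes measured. At 3000 UMIs it did so for 37 genes. The number of lists with a median past 1.5-fold was 3, and 5 with Cd209a at 1 UMI or more, 6 with 3 or more, 6 with at least 2 of Flt3, H2-DMb2 and H2-Oa, 7 with a C1q sum of 0, 5 after thinning and 8 without members with at least 5 Ly6c2 UMIs; the cause was not tested. The Cxcl2 ratio turned to 0.839 with at least 2 of those markers, and the cell cycle median to -0.37 without cycling members. The glycolysis median stayed between -0.90 and -0.60 and the immediate early median between 0.31 and 0.72 over 15 alternatives, while the MHC class I median changed sign under 9, MHC class II under 4, chemokines under 4 and maturation under 8. With 42 control and 29 motolimod members, each group in 1 library, genes under about 20 CPM could not be compared.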
